A study of Mus musculus with 15 samples.

Results

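The comparison described here asks whether anti-IgM and CpG, given together to B cells of AM-14 mice, moved each gene by more or by less than the sum of what each agent did alone. It used 12 of the 15 arrays of the series, 3 from each of 4 groups. For every gene the log2 signals of the arrays given both agents, minus those with anti-IgM, minus those with CpG, plus those in media, gave one value, called non-additivity below. A value of 0 means that the fold changes of the 2 agents multiply. Of 18193 genes with a probe set of 1 symbol, 13160 passed the filter on low signals and were tested, and 329 were called non-additive at a limma adjusted p under 0.05.

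All groups were B cells of AM-14 mice, which carry transgenes for a B cell receptor that binds self IgG. They were kept in media alone, or given goat anti-mouse IgM F(ab')2 fragments (anti-IgM), the oligodeoxynucleotide CpG 1826 (CpG), or anti-IgM and CpG (both agents). Cells given immune complexes of the chromatin antibody PL2-3 entered only the estimate of the spread. The arrays of both agents were assigned by their titles and descriptions, since their treatment entry says none. Doses, times and the origin of the 3 arrays of a group (1 culture, several, or several mice) are not given in the sources used here. Accordingly, p-values measure only the spread between arrays, which may be technical. Each sample was 1 Affymetrix array, and precision is limited by having 3 arrays in a group.

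Anti-IgM crosslinks the B cell receptor, which signals through the kinases Lyn and Syk to calcium, the ERK kinases and NF-kB. CpG DNA is taken up into endosomes, where TLR9 binds it and signals through the adaptor MyD88 to NF-kB and interferon regulatory factors. Both routes take a resting B cell into growth, with more Myc, more ribosomes and more glycolysis, and both lower transcripts of the resting state. In AM-14 cells the receptor can itself carry DNA-containing immune complexes to TLR9, which is why responses to joint engagement have been studied in them.

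The arrays with both agents differed from the labels in a labelling control and from the other 12 arrays in Xist, and this bears on every value below. By the labels, replicates 1 and 2 of a group were labelled with the Enzo kit and replicate 3 with the Ambion kit. Beta-actin control probe sets read the 5' and the 3' end of the transcript, and their ratio falls when labelled RNA is short. It was 0.335 to 0.747 on the 8 Enzo arrays of the other groups and 0.108 to 0.201 on their 4 Ambion arrays. With both agents it was 0.105 and 0.193 on the arrays labelled Enzo and 0.177 on the one labelled Ambion, so the arrays labelled Enzo lay in or just below the range of the other groups' Ambion arrays. A second fit therefore took labelling from these ratios, split at 0.26, and its values are called actin-based. Xist, the RNA that silences an X chromosome in female cells, had signals of 589, 391 and 321 with both agents and of 4252 to 15543 on the other 12 arrays. Whether origin or labelling set any value of this comparison cannot be told apart from the agents themselves, since every array with both agents shares them. Array medians were 266 to 303 signal units with both agents and 263 to 514 on the other arrays.

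**Figure D1:**
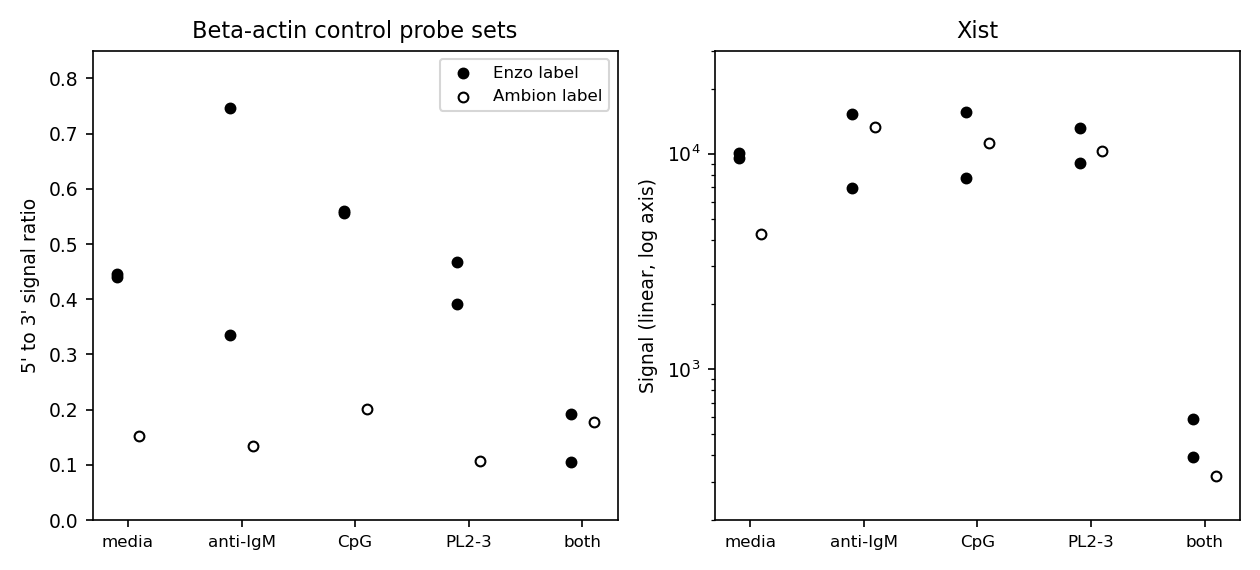
Beta-actin 5' to 3' ratio (left) and Xist signal (right, log axis) on each of the 15 arrays by group, with filled points for arrays labelled Enzo and open points for arrays labelled Ambion. All 3 arrays with both agents have ratios of 0.105 to 0.193 and Xist signals of 321 to 589.

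Below the sum lay 219 genes, 1.66% of those tested, and above it 110 genes, 0.836%. The median over all 13160 genes was 0.05. All 110 genes above the sum had a negative sum of single changes, and 216 of the 219 genes below it had a positive one. This count is a description and no test, because the media and single-agent arrays enter the sum and the non-additivity with opposite signs. All 329 genes had the same sign in each of the 3 same-numbered sets of 4 arrays. This too is no further evidence, because the called value is the mean of the values of those 3 sets. In the actin-based fit 252 genes (1.91%) were called below the sum and 86 (0.653%) above it, and 159 of the 219 and 55 of the 110 were called there with the same sign.

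The number of calls depended on single arrays. It was 84 without replicate 3 of anti-IgM, 93 without replicate 1 and 180 without replicate 2. Without CpG replicates 1, 2 and 3 it was 68, 185 and 75. Without media replicates 1, 2 and 3 it was 279, 328 and 129, and without replicates 1, 2 and 3 of both agents 195, 204 and 1315. It was also 36 without a labelling term in the fit, 24 with a spread estimate that ignores signal level, and 769 after quantile normalization. In the fits without 1 array the share of calls that opposed the sum stayed at 91.0% or more. This too is a description and no test, because the same arrays enter both values in each fit. Of 84 called genes followed by name, 17 kept their call without each of the 12 arrays in turn. These were Polr1b, Lmnb2, Ifrd2, Myc, Hk2, Nfkbiz, Ebi3, Xist, Irf2bp2 and Erdr1 below the sum and Siglecg, Pou2af1, Mical3, Srpk3, Acss1, Fcrla and Blk above it. Of these, Hk2, Blk, Fcrla and Erdr1 lost their call with arrays shifted to the same median. Myc, Nfkbiz, Irf2bp2, Srpk3, Fcrla and Erdr1 lost it without a labelling term. Myc, Fcrla and Erdr1 also lost it with the beta-actin ratio entered as a continuous value. Erdr1 was not called in the actin-based fit (adjusted p = 0.451), its other probe set gave 0.15, and the mean of its probe sets -0.82 (adjusted p = 0.192). For other genes described below, the number of arrays whose removal ended the call is given, so that lost without any of 4 arrays means that leaving out any single one of those 4 ended it. Each gene was read from 1 probe set, and with the mean of all its probe sets 32 of the 84 calls were lost and none changed sign. Such means were 1.81 for Susd3, -0.51 for Prag1 and 1.46 for Eif2s3y, none of them called. Nfkbiz and Usp22 were larger in size by this mean, at -2.78 and -2.17, and stayed called.

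**Figure D2:**
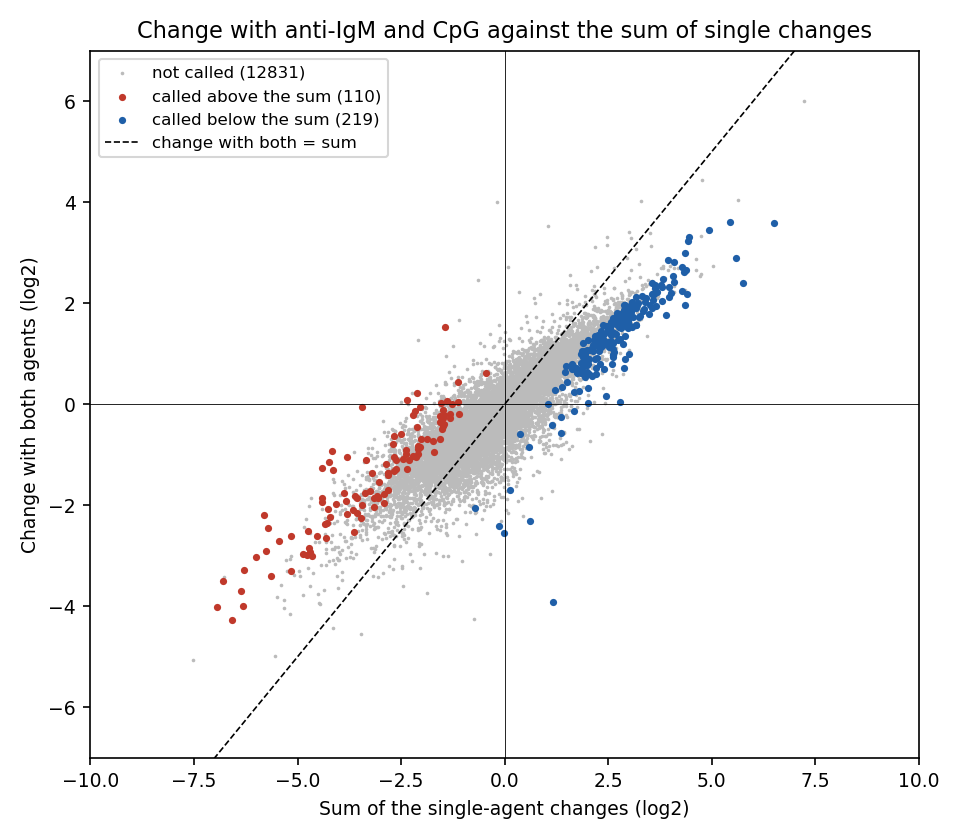
Change with both agents against media (vertical, log2) plotted over the sum of the changes with anti-IgM and with CpG (horizontal, log2) for 13160 genes. The 219 blue genes called below the sum lie under the dashed line of equality, mostly at positive sums, and the 110 red genes called above it lie over the line at negative sums.

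What each agent did alone sorted the called genes. Anti-IgM raised 1335 genes (10.1%) and lowered 1226 (9.32%), CpG raised 1728 (13.1%) and lowered 2227 (16.9%), and both agents together raised 2258 (17.2%) and lowered 3262 (24.8%). These comparisons share arrays with the non-additivity, so the classes describe it and are no further evidence. Of the 219 genes below the sum, 195 had been raised by each agent alone. Their median log2 change was 1.18 with anti-IgM, 1.5 with CpG and 1.51 with both, against a median sum of 2.68. For 156 of the 195, the level with both agents was not called different from that with either agent, for 35 it was called higher than with anti-IgM, and for 7 higher than with CpG. Among all 1044 genes raised by each agent, called or not, 1034 (99.0%) had a negative value and the median was -0.70.

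The falls mirrored the rises. Of the 110 genes above the sum, 91 had been lowered by each agent. Their medians were -1.41 with anti-IgM, -1.88 with CpG and -1.77 with both, against a sum of -3.34. For 71 of the 91, the level with both agents was not called different from either single agent. A smaller class responded to CpG alone: 12 genes below the sum were raised only by CpG, and 10 of them were called lower with both agents than with CpG. Likewise 15 genes above the sum were lowered only by CpG, and 11 of these 15 were called higher with both agents than with CpG. Anti-IgM alone had raised 2 genes below the sum, Csf1 and Gdap10, the latter a call lost without any of 11 arrays and in the actin-based fit (adjusted p = 0.375). The 9 genes below the sum and the 3 above it that neither agent was called to change are taken up further on.

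All 27 tested genes that build ribosomes rose with both agents, and 13 of them were called below the sum. Their list holds RNA polymerase I subunits, snoRNP proteins and rRNA processing factors. None was called above the sum, and the shares among all genes were 1.66% below and 0.836% above. The median value over the list was -1.02, beside 0.05 over all genes, and -1.08 in the actin-based fit, which called 14. Anti-IgM alone raised 25 of the 27 genes and CpG alone 26. Among all 1044 genes raised by each agent, 18.7% were called below the sum and the median was -0.7, a nearer background than all genes. The list is one of 31 chosen with earlier results of these data known. Its count fell to 3 without anti-IgM replicate 1 and to 2 without anti-IgM replicate 3, CpG replicate 1 or CpG replicate 3. It was 5 on the Enzo arrays alone.

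Polr1b encodes the second-largest subunit of RNA polymerase I, which transcribes rRNA. Its signals were 2313, 2224 and 1012 in media, 7810, 7802 and 6722 with anti-IgM, 11148, 8793 and 7192 with CpG, and 5346, 8251 and 7839 with both agents. The 3 stimulated groups overlapped and all lay above media. Single changes of 2.05 and 2.31 made a sum of 4.36, the change with both was 1.97, and non-additivity was -2.39 ± 0.32 (SE, n = 3 arrays per group, limma adjusted p = 0.00416, actin-based -2.01, adjusted p = 0.00637).

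Nop58, a core protein of box C/D snoRNPs that guide rRNA methylation, had a value of -2.01 ± 0.39 (adjusted p = 0.0172, lost without CpG replicate 1, where it was 0.0547). Its change with both agents, 0.90, was smaller in size than with anti-IgM (1.20) or CpG (1.71), though neither difference was called. The nucleolar GTPase Gnl3 had -1.65 ± 0.32 (adjusted p = 0.0178, lost without any of 3 arrays). Rrp1b, a nucleolar protein, had -1.83 ± 0.37 (adjusted p = 0.0204, lost without any of 4 arrays), and its actin-based adjusted p was 0.0689.

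Other called members rose somewhat further with both agents, but by less than the sum. Rrp9, a U3 snoRNP protein, rose by 2.02 with anti-IgM, 2.34 with CpG and 2.99 with both, and its level with both was called higher than with anti-IgM (limma adjusted p = 0.0114). Its non-additivity was -1.37 ± 0.30 (adjusted p = 0.0262, lost without any of 8 arrays). Polr1a, the largest subunit of RNA polymerase I, had changes of 1.60, 2.05 and 2.31 and a non-additivity of -1.34 ± 0.27 (adjusted p = 0.0204, lost without any of 4 arrays). Of the members not called, Npm1 (-0.27), Rrn3 (-0.20), Pes1 (-0.12) and Polr1c (-0.01) lay nearest to the sum. The 17 tested genes of cytosolic ribosomal proteins, by contrast, had a median of 0.24 and no call in either direction. Rpsa, their brightest member and a protein of the small subunit, had 0.30 ± 0.31 (adjusted p = 0.674).

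**Figure D3:**
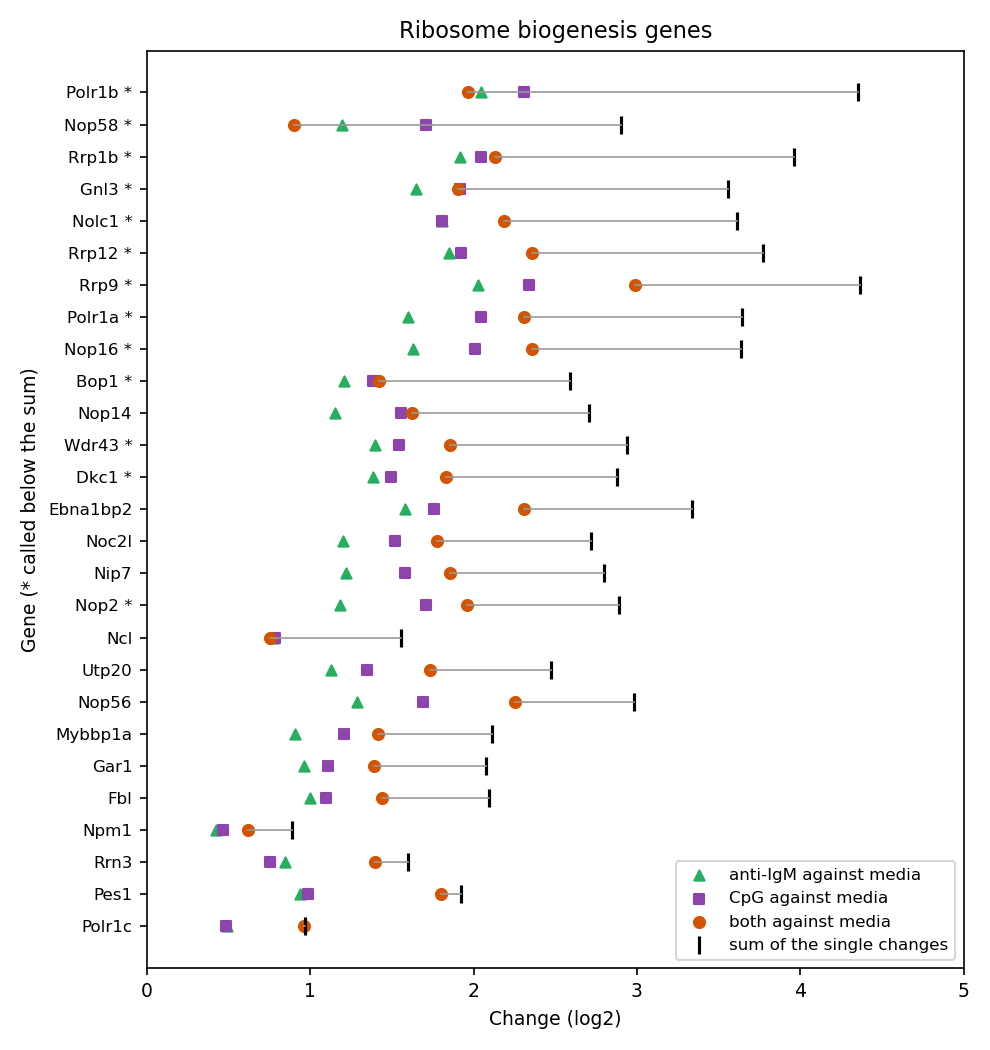
Log2 change against media with anti-IgM (triangles), CpG (squares) and both agents (circles), and the sum of the single changes (bars), for the 27 ribosome biogenesis genes ordered by non-additivity. All 27 circles lie at or left of the bar, from -2.39 for Polr1b to -0.01 for Polr1c.

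Many growth genes carry the E-box CACGTG, the letters that Myc and its partner Max bind, and Myc itself was among the genes below the sum. RefSeq promoters of GRCm38.p6 reaching from 250 bases before to 50 after the start site were searched for CACGTG, which reads the same on both strands. It was in a promoter of 33 of 176 genes below the sum with a promoter in the table (18.8%) and of 9 of 87 above it (10.3%). The share was 11.2% of all tested genes with a promoter and 8.09% of all genes with one. Counted by promoter and not by gene, CACGTG was in 7.15% of all promoters of this length. In the ribosome biogenesis list it was in 6 of 23 genes, 2 of the 11 called and 4 of the 12 not called, which is 18.2% and 33.3%. The 4 promoters printed are those of both called list members with the letters, Nop2 (an rRNA methyltransferase) and Wdr43 (a small-subunit processome protein), whose calls were lost without any of 9 and 7 arrays, and of a cell cycle kinase and a chaperone described next, Cdk6 and Hspd1. Cdk6 and Hspd1 were picked by hand, and only promoters with the letters were printed. Whether the other genes described next carry them is not reported. Capitals mark CACGTG, each sequence reads 5' to 3' on the strand of the gene, and a match is a description, not a binding site. They lie at chr6:125131633-125131932 (Nop2, plus strand), chr17:71615965-71616264 (Wdr43, plus strand), chr5:3343643-3343942 (Cdk6, plus strand) and chr1:55088194-55088493 (Hspd1, minus strand).
Nop2: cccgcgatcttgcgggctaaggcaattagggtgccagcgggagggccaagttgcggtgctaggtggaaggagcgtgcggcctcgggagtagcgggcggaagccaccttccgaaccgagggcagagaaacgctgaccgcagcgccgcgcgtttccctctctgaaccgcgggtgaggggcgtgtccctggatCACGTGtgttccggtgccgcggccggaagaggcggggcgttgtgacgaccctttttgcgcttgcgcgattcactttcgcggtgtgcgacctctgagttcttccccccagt
Wdr43: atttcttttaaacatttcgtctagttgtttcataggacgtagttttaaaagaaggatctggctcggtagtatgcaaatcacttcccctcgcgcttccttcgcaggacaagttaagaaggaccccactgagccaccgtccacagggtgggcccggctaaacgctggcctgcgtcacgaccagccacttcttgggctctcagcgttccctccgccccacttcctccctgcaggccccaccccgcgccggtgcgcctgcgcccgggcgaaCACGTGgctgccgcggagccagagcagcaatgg
Cdk6: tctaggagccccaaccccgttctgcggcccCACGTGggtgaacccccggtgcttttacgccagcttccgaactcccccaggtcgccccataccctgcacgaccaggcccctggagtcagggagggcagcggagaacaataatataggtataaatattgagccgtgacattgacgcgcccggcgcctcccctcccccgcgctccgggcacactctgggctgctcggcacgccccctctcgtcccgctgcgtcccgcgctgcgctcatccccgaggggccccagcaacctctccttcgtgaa
Hspd1: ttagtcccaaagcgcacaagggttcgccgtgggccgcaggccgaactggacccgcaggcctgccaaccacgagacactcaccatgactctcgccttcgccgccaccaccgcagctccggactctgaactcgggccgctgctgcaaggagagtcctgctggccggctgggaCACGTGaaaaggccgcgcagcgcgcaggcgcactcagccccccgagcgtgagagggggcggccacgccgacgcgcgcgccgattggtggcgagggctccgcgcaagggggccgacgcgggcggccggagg

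Myc had signals of 10047, 10004 and 3100 in media, 32652, 39369 and 21811 with anti-IgM, 37330, 34453 and 21096 with CpG, and 36915, 29760 and 31551 with both agents. The 3 stimulated groups overlapped, and all lay above media. The changes were 2.15, 2.13 and 2.25, the sum was 4.28 and the non-additivity -2.03 ± 0.34 (limma adjusted p = 0.0113, actin-based -1.32, adjusted p = 0.0201). Ambion arrays of media and of each single agent read lower than their Enzo arrays for this gene, while the arrays with both agents did not differ in that way.

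Cdk6, a kinase of the G1 phase, changed by 1.21 with anti-IgM, 1.80 with CpG and 0.99 with both agents, a non-additivity of -2.02 ± 0.40 (adjusted p = 0.0203, lost without any of 4 arrays and, at -1.38, with the mean of its probe sets). Ifrd2, a growth-induced protein that represses translation on ribosomes, rose by 1.75, 2.16 and 1.77, with a value of -2.14 ± 0.31 (adjusted p = 0.00633). Lmnb2, lamin B2 of the nuclear envelope, was low in media at 155, 135 and 128. It reached 1279, 1175 and 2043 with anti-IgM, 2486, 2664 and 2805 with CpG and 1786, 3178 and 2759 with both agents. Levels with both agents overlapped those with CpG and, in 1 array, those with anti-IgM, and against a sum of 6.50 the change with both was 3.59. Its non-additivity of -2.92 ± 0.34 (adjusted p = 0.000746, actin-based -3.11) had the lowest adjusted p below the sum after Xist.

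Metabolic genes gave single calls. Hk2, the hexokinase that commits glucose to glycolysis, had 3098, 2491 and 2239 in media, 8125, 6464 and 6869 with anti-IgM, 14225, 13090 and 13994 with CpG, and 15450, 14106 and 14596 with both agents. The level with both agents was called above anti-IgM (by 1.04, adjusted p = 0.000498) and lay at that of CpG (difference 0.10, adjusted p = 0.775). Its value was -1.34 ± 0.20 (adjusted p = 0.00633), the only call among 15 glycolysis genes, whose median was -0.31. Sqle, squalene epoxidase of the cholesterol pathway, had -1.17 ± 0.26 (adjusted p = 0.0264, lost without any of 6 arrays), the only call among 16 cholesterol genes at a median of -0.14. Of 17 heat shock genes 2 were below the sum, the HSP110 chaperone Hsph1 (-1.11 ± 0.24, adjusted p = 0.025) and the mitochondrial chaperonin Hspd1 (-0.93 ± 0.20, adjusted p = 0.0262). Each was lost without any of 6 arrays.

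**Figure D4:**
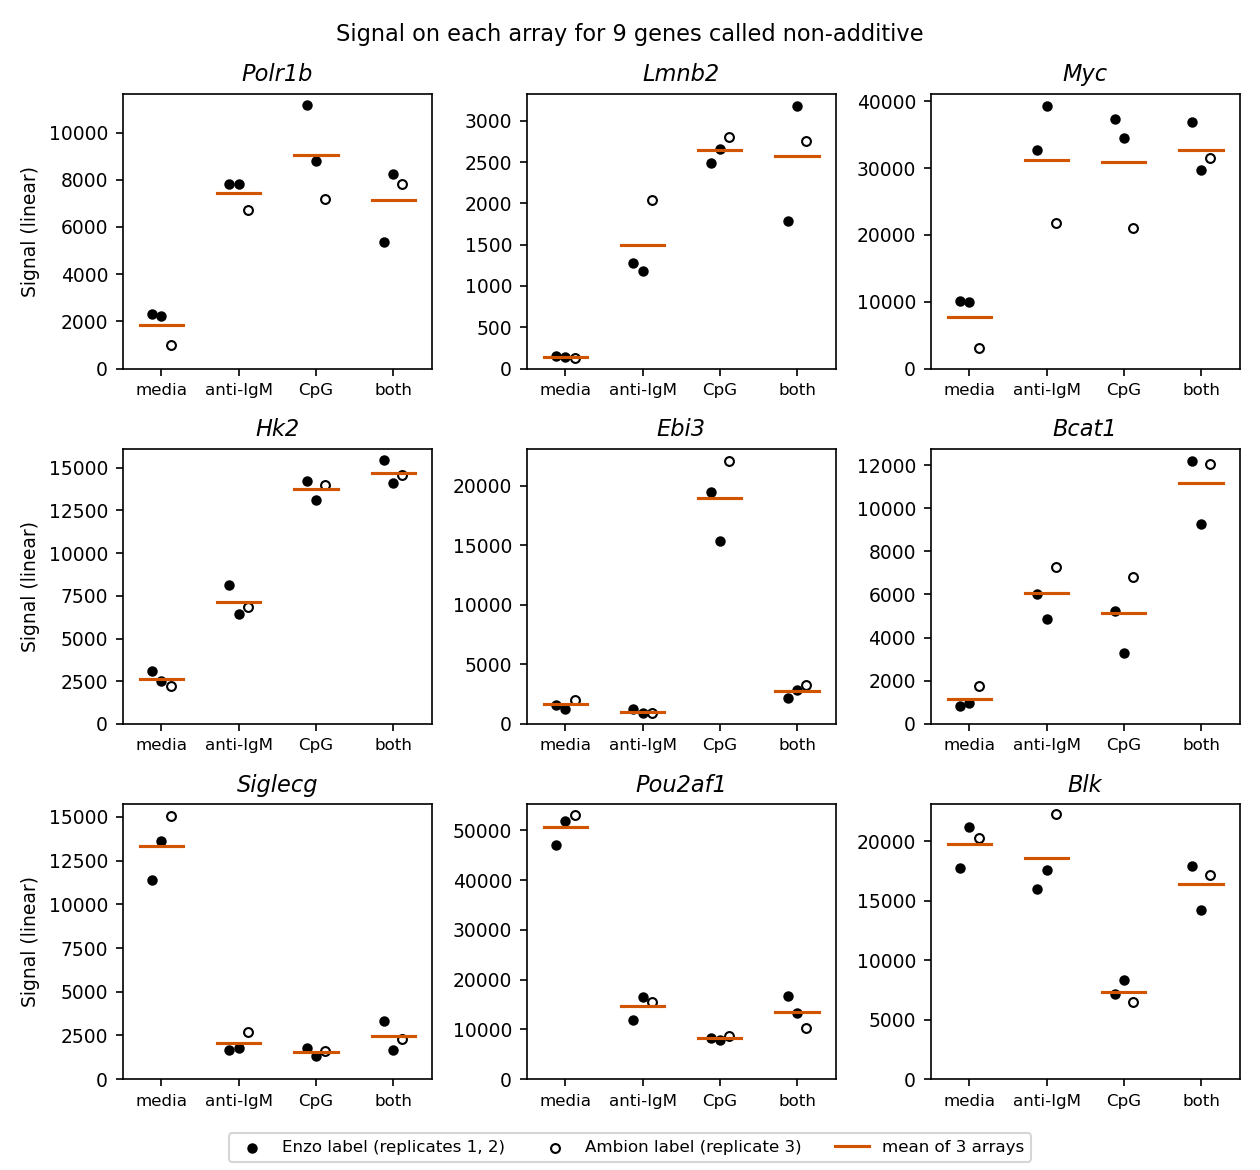
Signal on each array (linear axis from 0) for 9 called genes in media, anti-IgM, CpG and both agents, with filled points for arrays labelled Enzo, open points for Ambion and a bar at the mean of 3. Polr1b, Lmnb2, Myc and Hk2 reach with both agents about the level of a single agent, Ebi3 returns toward media, Bcat1 with both lies above each single agent, Siglecg and Pou2af1 stay low, and Blk is low with CpG alone.

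Lists of inflammatory signalling had few calls, all below the sum, where 1.66% of all genes lay. They were 2 of 18 NF-kB genes, 3 of 28 cytokines and chemokines, 1 of 30 interferon-stimulated genes, and none of 22 TLR signalling genes or of 21 SOCS and STAT genes. Nfkbiz, an atypical IkB protein that switches on secondary NF-kB targets such as Il6, had 7182, 5745 and 4013 in media, 12713, 12763 and 8804 with anti-IgM, 56676, 63991 and 46968 with CpG, and 32713, 39151 and 30529 with both agents. Every array with both agents lay above those of anti-IgM and below those of CpG. The difference from CpG was -0.71 (limma adjusted p = 0.0596), and the non-additivity was -1.73 ± 0.29 (adjusted p = 0.0112). Cflar, which blocks caspase-8, had -1.62 ± 0.33 (adjusted p = 0.0206, lost without any of 5 arrays). The median over the NF-kB list was -0.30.

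The median over the cytokines and chemokines was -0.48. Ccl3 and Ccl4, chemokines that draw T cells, had -1.84 ± 0.44 and -1.73 ± 0.41 (adjusted p = 0.0387 and 0.0362). Both calls were lost in the actin-based fit (adjusted p = 0.158 and 0.165) and without any of 8 arrays. Ccl3 nevertheless reached its highest signals of the contrast with both agents, 99994, 91312 and 85637, against 45502 to 65102 with CpG. Its change of 3.61 with both was called higher than with anti-IgM (adjusted p = 0.0407), and not called higher than with CpG (adjusted p = 0.245).

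Ebi3, the shared subunit of the cytokines IL-27 and IL-35, was raised strongly by CpG and little by both agents. It had 1622, 1238 and 2030 in media, 1270, 910 and 908 with anti-IgM, 19460, 15364 and 22023 with CpG, and 2140, 2843 and 3225 with both agents. CpG arrays lay far above all others, and those with both agents lay just above media. CpG raised it by 3.49 and both agents by 0.73 (limma adjusted p = 0.0166), and the level with both was 2.76 log2 units below CpG (difference -2.76, adjusted p = 4.57e-06). Non-additivity was -2.15 ± 0.32 (adjusted p = 0.00633, actin-based -2.19, adjusted p = 0.00822).

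Il6, a B cell and plasma cell growth factor, followed a similar course without a call. Its signals were 794, 608 and 155 in media, 767, 243 and 344 with anti-IgM, 17208, 14970 and 12485 with CpG, and 5863, 5423 and 4238 with both agents. All arrays with both agents lay below those of CpG, by 1.51 (difference -1.51, adjusted p = 0.0138), while the non-additivity was -1.42 ± 0.46 (adjusted p = 0.113). It was called below the sum without anti-IgM replicate 2. Il12b, a subunit of IL-12, had -1.57 ± 0.60 (adjusted p = 0.171). Il6, Il12b and, in the next paragraph, all genes but Repin1 were chosen after their values were seen.

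Other genes raised by CpG alone moved in the same direction as Ebi3. Niban1, a stress-induced protein, had 9290, 7521 and 13834 with CpG and 1807, 2754 and 2767 with both agents, beside 1464 to 1760 in media. Bdh1, a mitochondrial enzyme of ketone metabolism, had 5943, 5467 and 4798 with CpG and 1772, 1550 and 1956 with both agents, within its media range of 905 to 2451. The ubiquitin protease Usp22, the interferon-inducible Ifi209 and the scaffold Prag1 were also called lower with both agents than with CpG, by differences of -1.07, -1.46 and -0.97. The zinc finger gene Repin1 had a non-additivity of -2.27 ± 0.48 (adjusted p = 0.023), but its other tested probe set gave -0.27 and the mean of its probe sets -0.55 (adjusted p = 0.459). The calls were lost without any of 7 arrays for Niban1, 5 for Bdh1, 7 for Usp22, 3 for Ifi209, 9 for Prag1 and 6 for Repin1.

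Among interferon-stimulated genes only Mx2 was called, and the list had a median of -0.66 that became -1.17 without replicate 1 of both agents. Mx2, an antiviral GTPase, had 93.3, 166 and 79.3 in media, 946, 639 and 431 with anti-IgM, 3401, 1543 and 2077 with CpG, and 1912, 880 and 1286 with both agents. Its value was -2.70 ± 0.52 (adjusted p = 0.0172, lost without any of 3 arrays). The related Mx1 had -1.22 ± 0.48 (adjusted p = 0.187) and was not called.

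Siglecg, Fcrla and Cd22 were the calls, all above the sum, among 16 inhibitory receptors and phosphatases, whose median was 0.46. Over all 907 genes that each agent lowered, 97.5% had a value above 0. Fewer cells of a type and less RNA per cell cannot be told apart in these bulk samples. Siglecg, the sialic acid receptor Siglec-G that restrains B cell receptor calcium signals, had 11409, 13616 and 15033 in media, 1670, 1784 and 2696 with anti-IgM, 1781, 1305 and 1586 with CpG, and 3322, 1685 and 2326 with both agents. All stimulated arrays lay below media and overlapped each other. Changes of -2.68 and -3.04 would sum to -5.72, the change with both was -2.46, and non-additivity was 3.27 ± 0.35 (limma adjusted p = 0.000285, actin-based 2.97). Its lowest signal with both agents, 1685, was well above the medians of those arrays, 266 to 303.

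Fcrla, an Fc receptor-like protein of B cells, changed by -2.11, -4.26 and -3.69, with a value of 2.68 ± 0.49 (adjusted p = 0.0142). Cd22, another sialic acid receptor that inhibits the B cell receptor, had 1.99 ± 0.50 (adjusted p = 0.0481, actin-based 0.109, lost without any of 9 arrays). With the mean of its probe sets Cd22 had 1.75 and was not called (adjusted p = 0.0739). Pou2af1, the coactivator OCA-B needed for germinal centres, had 47173, 51968 and 53015 in media, 11985, 16440 and 15546 with anti-IgM, 8222, 7839 and 8777 with CpG, and 16704, 13391 and 10387 with both agents. Arrays with both agents overlapped those of anti-IgM and lay above all 3 of CpG, by 0.68 (adjusted p = 0.0334). Its non-additivity, 2.47 ± 0.24 (adjusted p = 0.000166, actin-based 2.38), had the lowest adjusted p above the sum.

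Plasma cell and germinal centre regulators had 2 calls above and 1 below the sum among 21. Besides Pou2af1 these were Ikzf3, the lymphoid factor Aiolos, at 1.47 ± 0.36 (adjusted p = 0.0427), and Irf4, a factor of plasma cell differentiation that stimulation raises, at -1.60 ± 0.35 (adjusted p = 0.0264). Actin-based adjusted p-values were 0.0904 and 0.0514, and the calls were lost without any of 10 and 6 arrays. With the mean of probe sets they were 0.72 and -1.60, and not called (adjusted p = 0.27 and 0.061). Of 24 quiescence genes 4 were above the sum and none below, at a median of 0.61. Rbl2, a retinoblastoma relative that holds cells out of cycle, changed by -1.93, -1.87 and -2.17, a value of 1.63 ± 0.31 (adjusted p = 0.0172, and 0.0508 without CpG replicate 3). Its other probe set gave 0.22 and the mean of its probe sets 0.93 (adjusted p = 0.294). Ypel3 and the growth-restraining factor Foxo3 had 1.65 ± 0.37 and 1.85 ± 0.45 (adjusted p = 0.0299 and 0.041, lost without any of 6 and 10 arrays). That of Foxo3 was also lost in the actin-based fit (adjusted p = 0.0948) and, at 1.14, with the mean of its probe sets (adjusted p = 0.101). Mxd4, a partner of Max that opposes Myc, had 3.29 ± 0.83 (adjusted p = 0.0481), a call lost without any of 11 arrays, in the actin-based fit (adjusted p = 0.0759) and, at 1.62, with the mean of its probe sets. Its other probe sets gave -0.20 to 3.01.

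Naming genes by size brought in several that were dim after stimulation and had wide errors. Susd3, a sushi domain protein, had 1753, 1605 and 2943 in media, 92.6, 72.3 and 52.8 with CpG and 786, 159 and 411 with both agents, and a value of 3.63 ± 0.73 (adjusted p = 0.0204, lost without any of 3 arrays). Mical3, a cytoskeletal oxidoreductase, had 39.3, 62.9 and 80.1 with CpG and 883, 322 and 421 with both agents, and was called higher with both than with CpG (adjusted p = 0.00267). Its non-additivity was 3.25 ± 0.50 (adjusted p = 0.00693). Signals of this size are near the 75.19 units added before the logarithm. Gldc, glycine decarboxylase, had 3.38 ± 0.68, the kinase Srpk3 3.00 ± 0.48, the acetate enzyme Acss1 2.85 ± 0.52, the adaptor Lax1 2.74 ± 0.56 and the DNA glycosylase Neil1 2.55 ± 0.52. The calls of Gldc, Lax1 and Neil1 were lost without any of 2, 4 and 5 arrays, and that of Acss1 with the mean of its probe sets (1.27, adjusted p = 0.17). Cd7, a T and NK cell surface protein, had 2.94 ± 0.75 (adjusted p = 0.0485, lost without any of 11 arrays).

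In a further group CpG alone lowered a gene that stayed higher when anti-IgM was also given. Blk, a Src family kinase of the B cell receptor, had 17764, 21221 and 20301 in media, 16013, 17569 and 22327 with anti-IgM, 7169, 8379 and 6495 with CpG, and 17914, 14183 and 17162 with both agents. Only the CpG arrays lay apart. The level with both was 1.15 above CpG (adjusted p = 0.000619) and the non-additivity 1.25 ± 0.23 (adjusted p = 0.0135, actin-based 1.16, adjusted p = 0.0186). It was the only call among 19 receptor chains and proximal kinases, whose median was 0.38. Cd79a, the receptor's own signalling chain, had 1.09 ± 0.38 (adjusted p = 0.141) and was called without replicate 2 of both agents (1.44, adjusted p = 0.0417).

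Sat1 and Rab30, chosen after their values were seen, followed the same course. Sat1, which acetylates polyamines, had 6900, 9323 and 8331 with CpG and 17854, 14096 and 11158 with both agents, around its media range of 15670 to 16781. Its value was 1.12 ± 0.23 (adjusted p = 0.0212, lost without any of 5 arrays). Rab30, a Golgi GTPase, had 125, 31.8 and 44.2 with CpG and 2240, 523 and 475 with both agents, with a value of 3.14 ± 0.74 (adjusted p = 0.0362, actin-based 0.0602, lost without any of 8 arrays).

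Of 38 genes raised by anti-IgM and lowered by CpG, 1 was called, and of 24 moved the other way, none. Tmem51, a membrane protein, was raised by anti-IgM (1.14) and lowered by CpG (-2.40), and lay at its media level with both agents (0.01). Its signals were 5163, 4886 and 7504 in media and 5046, 5694 and 6808 with both, and its value of 1.28 ± 0.32 (adjusted p = 0.0474) was lost in the actin-based fit (0.0909) and without any of 10 arrays. On linear signals the same contrast was negative, -2249. In the other direction Csf1, the macrophage growth factor, had 4210, 3952 and 3837 with anti-IgM and 2021, 2156 and 1626 with both agents, beside 1043 to 1508 in media. It was likewise chosen after its values were seen, as was Tmem51. The level with both was called lower than with anti-IgM (difference -1.03, adjusted p = 0.00603), and the value was -1.53 ± 0.29 (adjusted p = 0.0147, lost without any of 2 arrays).

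Among genes below the sum, 5 were called higher with both agents than with either: Bcat1, Epop, Fzd9, Shmt1 and Zc3h12c. They, and the genes that neither agent was called to change, were named for that pattern after their values were seen. Bcat1, which starts the breakdown of branched-chain amino acids, had 806, 949 and 1759 in media, 6038, 4865 and 7279 with anti-IgM, 5249, 3307 and 6821 with CpG, and 12183, 9286 and 12034 with both agents. Every array with both agents exceeded every other array of the contrast. Its log2 value was -1.20 ± 0.29 (adjusted p = 0.0394, lost without any of 8 arrays and with the mean of its probe sets, 0.0952), while the same contrast on linear signals was 1152, above the sum.

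This change of sign on linear signals was shared by the transcription cofactor Epop (497), the Wnt receptor Fzd9 (201) and the RNase-like Zc3h12c (1114). Shmt1, a serine hydroxymethyltransferase that feeds nucleotide synthesis, kept its sign, at -288. Its signals were 6162, 6366 and 5315 with anti-IgM, 5718, 4498 and 5648 with CpG, and 8296, 9977 and 10600 with both agents. Over all called genes, the linear contrast kept the sign for 109 of 110 above the sum and 215 of 219 below it. The call was lost without CpG replicate 1 for Epop, without any of 3 arrays for Shmt1, and without any of 9 for Fzd9 and for Zc3h12c. That of Zc3h12c was also lost in the actin-based fit (adjusted p = 0.0908).

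Genes called changed by neither agent made up 8657 of those tested, and 12 of them were called non-additive. Xist, 1 of these, had the largest value by size of all genes called, -5.07 ± 0.48 (adjusted p = 0.000166, actin-based -4.93). The Y-linked Eif2s3y, a translation factor subunit, had 2335, 1933 and 4782 in media, 1448, 735 and 2049 with anti-IgM, 1454, 605 and 2440 with CpG, and 2930, 4769 and 2486 with both agents. Its single changes of -1.06 and -1.06 were not called (adjusted p = 0.0726 and 0.0528). It was above the sum at 2.33 ± 0.56 (adjusted p = 0.0379), as was the Y-linked demethylase Kdm5d, which CpG had lowered, at 2.03 ± 0.48 (adjusted p = 0.0371). The actin-based adjusted p-values were 0.0787 and 0.0602, and each call was lost without any of 10 arrays. The mean of its probe sets gave Kdm5d 0.99 (adjusted p = 0.227).

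Bcl2l11, the pro-apoptotic Bim, had 69149, 70650 and 13981 in media, 66080, 54884 and 16319 with anti-IgM, 64158, 60432 and 15419 with CpG, and 6342, 8460 and 8288 with both agents. Its Ambion arrays read far below its Enzo arrays in each of the first 3 groups. The value was -2.28 ± 0.53 (adjusted p = 0.0325), the actin-based one -0.91 (adjusted p = 0.0555), and the call was lost without any of 9 arrays. Gcnt2, a glycan branching enzyme, ran the other way, with 285 and 590 on the Enzo and 3155 on the Ambion media array and 2057, 2493 and 3343 with both agents. It had 2.96 ± 0.58 (adjusted p = 0.0178, lost without media replicate 3 or CpG replicate 1) and 1.21 in the actin-based fit (adjusted p = 0.127). The mean of its probe sets gave 0.74 (adjusted p = 0.237). With both agents Bcl2l11 lay below its Ambion arrays of media and of each single agent, 13981 to 16319. Its Ambion array with PL2-3 read 8203. Gcnt2 with both agents lay around its Ambion media array. The part of labelling in either result was not tested beyond the actin-based fit.

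Irf2bp2, a corepressor of interferon regulatory factor 2, kept its call in the actin-based fit. It had 20492, 21082 and 10716 in media, 18603, 26220 and 13166 with anti-IgM, 23959, 27325 and 17895 with CpG, and 8542, 9624 and 9664 with both agents, which lay below all other arrays of the contrast. Its value was -1.44 ± 0.27 (adjusted p = 0.0147, actin-based -0.98, adjusted p = 0.028). The glycogen regulator Ppp1r3b, the mitochondrial RNA-binding Ptcd1 and the heparan sulphate proteoglycan Sdc4 were called lower with both agents than with either, at -2.91 ± 0.61, -2.54 ± 0.54 and -1.83 ± 0.44. Their actin-based adjusted p-values were 0.0793, 0.0904 and 0.109, and the calls were lost without any of 6, 5 and 9 arrays. The other probe sets of Ptcd1 and Sdc4 gave -0.10 and -0.44, and the means -1.32 and -1.14 were not called (adjusted p = 0.0893 and 0.0981). Snn, a small membrane protein that CpG lowered, had 2830, 4252 and 4376 with both agents against 6959 to 7303 with CpG, a value of -1.33 ± 0.33 (adjusted p = 0.0481). Its call was lost without any of 10 arrays, and its other probe set gave 1.08.

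Several well-known targets of one receptor showed no call of non-additivity, which does not show that the agents add. Xcl1, a chemokine, changed by 4.37 with anti-IgM, 0.41 with CpG and 4.44 with both, a value of -0.33 ± 0.46 (adjusted p = 0.762). Batf, a factor of class switching, changed by 0.16, 2.79 and 2.90, a value of -0.05 ± 0.34 (adjusted p = 0.959). Egr2, a calcium-dependent factor that restrains activation, changed by 2.31, -0.52 and 1.98, a value of 0.19 ± 0.32 (adjusted p = 0.799). Socs3, an inhibitor of cytokine signalling, had 0.78 ± 0.30 (adjusted p = 0.168) and was called in the actin-based fit at 1.27 (adjusted p = 0.0183). These 4 were chosen after their values were seen.

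The remaining lists had few or no calls. Of 20 immediate early genes Myc was the only one, at a median of -0.19. In the ERK feedback list 1 of 14 was called, Rasgrp1, an activator of Ras, at 1.30 ± 0.28 (adjusted p = 0.0251, lost without any of 6 arrays). Its other tested probe set gave 0.00 and the mean of its probe sets 0.27 (adjusted p = 0.737). Of 27 G1-S and replication genes Cdk6 was the only call. Of 17 apoptosis regulators Bcl2l11 and Cflar lay below and Mcl1, a survival factor, above the sum (1.06 ± 0.22, adjusted p = 0.0212, lost without any of 3 arrays and with the mean of its probe sets, actin-based 0.0555). Of 15 MHC class II genes the peptide-loading modulator H2-Oa was above it (1.56 ± 0.34, adjusted p = 0.0264, lost without any of 6 arrays, actin-based 0.0555).

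No member was called among 22 TLR signalling genes (median 0.03), 15 calcium and NFAT genes (0.52), 21 SOCS and STAT genes (-0.08), 19 surface molecules of activation (-0.24), 23 genes of the unfolded protein response (0.16), 11 marginal zone markers (0.54) and 23 mitosis genes (1.28). Over all genes 2342 had an unadjusted limma p under 0.05. The brightest members were Ly86, which holds the TLR-like CD180 (0.07 ± 0.31), the calcineurin subunit Ppp3cb (0.01 ± 0.20), Stat3 (0.44 ± 0.33), the activation marker Cd83 (-1.11 ± 0.35, adjusted p = 0.101) and the chaperone BiP, Hspa5 (-0.12 ± 0.34). Stat3 was called in the actin-based fit at 1.14 (adjusted p = 0.0183), and Cd83 without replicate 3 of both agents at -1.34 (adjusted p = 0.024).

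Mitosis genes moved with single arrays. Mki67, a marker of cycling cells, had 22855 on replicate 1 of both agents and 2472 and 3397 on the others, and 14853, 11563 and 29953 in media. The list's median of 1.28 became 0.63 without that array and 0.69 without media replicate 3. Both arrays also had the highest summed signals of myeloid and erythroid markers in their groups. With both agents the myeloid sum was 206114 on replicate 1 and 44004 and 60206 on the others, and in media it was 341930 on replicate 3 and 196020 and 202364 on the others. Their part in the mitosis values was not tested.

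**Figure D5:**
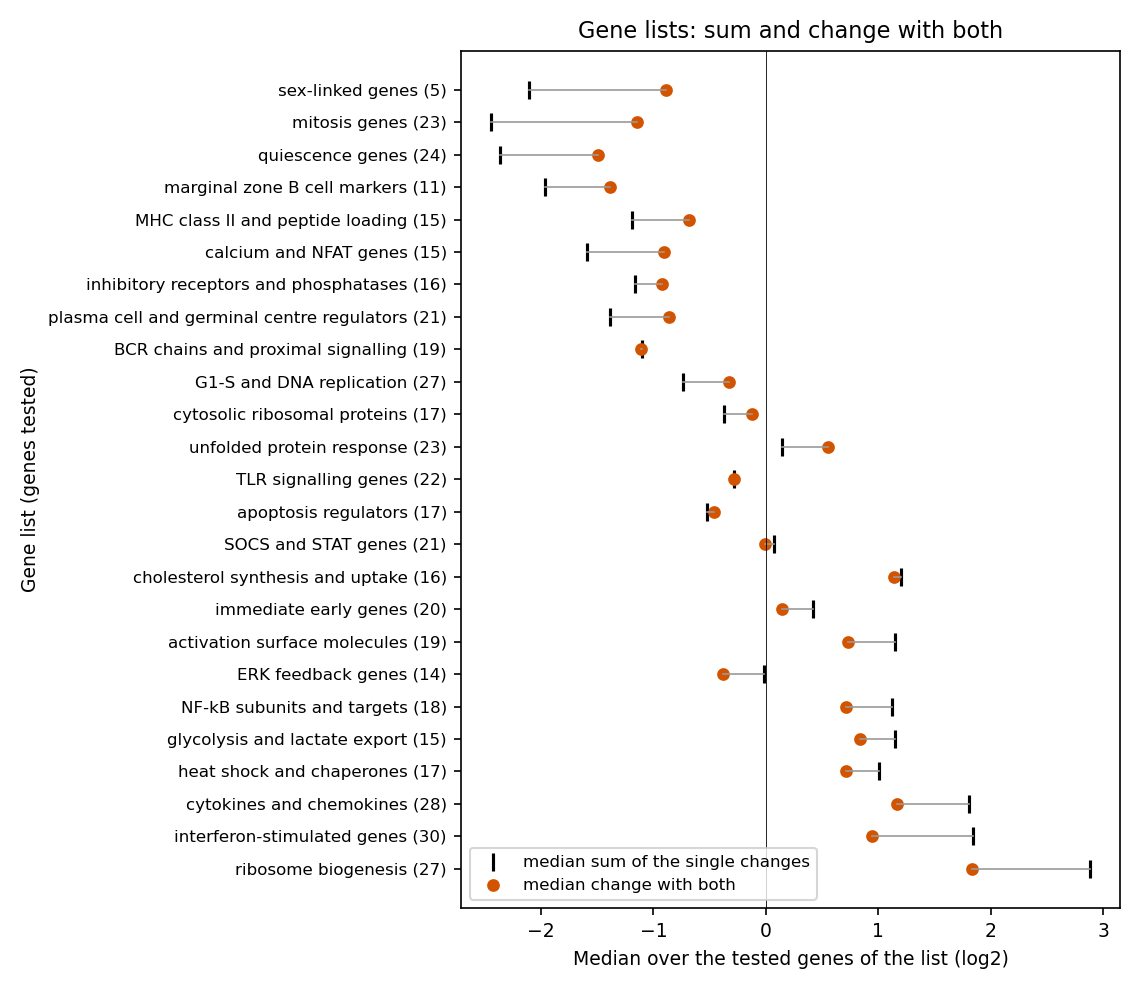
Median over the tested genes of each of 25 gene lists of the sum of the single changes (bars) and of the change with both agents (circles), in log2 units, ordered by median non-additivity. The ribosome biogenesis list runs from a sum of 2.88 to 1.83 with both agents, and the TLR signalling list stays at -0.28.

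Markers of cell types were called in 2 cases. Of 12 B cell markers Cd22 was above the sum, and of 12 T cell markers Cd2, an adhesion receptor, at 1.77 ± 0.41 (adjusted p = 0.0348, actin-based 0.0543, lost without any of 8 arrays). None of 10 NK, 20 myeloid, 7 plasmacytoid dendritic and 7 erythroid markers was called. Summed B cell marker signals were 310411 to 398510 in media, 127224 to 175396 with anti-IgM, 166601 to 193783 with CpG and 79719 to 110544 with both agents. The B cell marker Cd79a read 6485 to 13920 with both agents, against 40920 to 80260 in media. With both agents the T cell marker Cd3e read 119 to 883. Markers of the same cell type differed widely there. Of further B cell markers, Ms4a1 read 15800 to 19690 and Cd79b 4753 to 8175. Of erythroid markers, Alas2 read 14190 to 52560, Car2 8329 to 22230 and Hba-a1 181 to 263. Signals of different probe sets do not give the shares of cell types. NK marker sums were 20614 to 35120 with both agents and 5830 to 24976 in the other groups of the contrast and PL2-3, though the NK receptor Ncr1 read 260 to 703 and overlapped its range in media. The part of these cells in the results was not tested.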

How the data were processed

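RNA of 15 samples was read on 1-colour Affymetrix arrays. The deposited intensities are MAS5 signals, per the submitters' processing notes, on a linear scale, and the scaling the authors gave them was kept. Of 45037 probe sets besides 64 controls, 34945 had 1 gene symbol in the platform annotation, 932 several and 9160 none, and only the first were used. A gene was read from its probe set of highest mean signal. Signals plus 75.19, the 20th percentile of all signals, were put on the log2 scale, which understates changes of low genes, and 13160 of 18193 genes were tested, those whose signal reached the array's median on 3 or more arrays.

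The model held 5 groups and the labelling kit over 15 arrays, with 9 residual degrees of freedom, in limma 3.58.1 (R 4.3.3) with an intensity trend and empirical Bayes. Every adjusted p is limma's two-sided test with Benjamini-Hochberg adjustment over the genes tested, and a call is an adjusted p under 0.05. A permutation of 3 against 3 arrays could not go below p = 0.1. The actin-based fit replaced the kit by the side of a beta-actin ratio of 0.26. The fit was tested on simulated data. Summaries and figures used Python 3.11.15, pandas 2.3.3 and matplotlib 3.10.9.

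The comparison, 31 lists of 589 genes (525 tested) and the naming rule were chosen with earlier results of these data known. The rule took the 12 largest values in each direction with 1 sign in all replicate sets and probe sets and an actin-based call, up to 4 called members of each list, and the brightest member where none was called. Genes outside it are said to be chosen after their values were seen; among them are also Erdr1, Gdap10, Mx1, Cd79a, Snn and the uncalled ribosome genes. Alternatives covered scaling, pseudocount, filter, labelling, replicate number, trend, arrays in the fit, probe sets, a minimum size, linear signals and each array left out.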

Additional observations from a re-analysis of the deposited data

How the results depend on the processing

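Calls (329, of which 110 above and 219 below the sum, 13 of them ribosome biogenesis genes) changed as follows. Quantile normalization gave 769 (310 above, 459 below), and arrays shifted to the same median gave 32 (12 above, 20 below, 2 ribosome genes). Without a labelling term there were 36 (13, 23 and 1), with eBayes without a trend 24 (13, 11 and 1), and with the 12 arrays of the contrast only 143 (56, 87 and 7). The mean of probe sets gave 205 (53 above, 152 below), and the continuous beta-actin ratio 268 (48 above, 220 below). Only 5 ribosome genes were called on Enzo arrays only. On low beta-actin arrays only, with 2 residual degrees of freedom, limma called 0 (0 above, 0 below, 0 ribosome genes), with 1908 genes at an unadjusted p under 0.05. The share above the sum, 33.4%, was 17.9% with the continuous ratio and 54.2% without a trend. The causes were not tested.

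Without each array in turn, calls ranged from 68 to 1315, those above the sum from 25 to 607, those below from 43 to 708, and ribosome genes from 2 to 15. On linear signals the contrast of Bcat1 (1152.5), Epop (496.7), Fzd9 (200.8), Zc3h12c (1114.3) and Tmem51 (-2249.3) took the opposite sign, and 79 of 84 followed genes kept theirs. No followed gene changed sign under another alternative. With the replicate number as a replicate block there were 337 calls (116 above, 221 below, 13 ribosome genes), of which 303 were among the 329. Deviations of same-numbered arrays correlated at 0.121 to 0.684 in 18 pairs without both agents and at -0.193 to 0.0748 in 12 pairs with them. The arrays with both agents also lack the split of beta-actin ratios seen between replicates of the other groups. These correlations therefore cannot tell whether same-numbered arrays were prepared together.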

Other observations

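The PL2-3 arrays offer another joint stimulus, and their signals are given as values with no test and no reading of cause. Ebi3 and Niban1, which both agents left near media levels, were also near them with PL2-3, and were picked after their values were seen. Ebi3 read 2049, 2551 and 1746 with PL2-3, against 15364 to 22023 with CpG and 2140 to 3225 with both agents. Niban1 read 2050, 1489 and 2287, against 7521 to 13834 with CpG and 1807 to 2767 with both agents. Ifi209, also raised by CpG alone, differed. It read 2871 to 3525 with PL2-3, below its media range of 7306 to 8317, and 4276 to 9539 with both agents.

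Of the genes called higher with both agents than with each single agent, Bcat1 and Shmt1 were also high with PL2-3. Mean PL2-3 signals of Epop (5089), Fzd9 (2016), Zc3h12c (5625) and Nek7 (14136) likewise lay above their means with each single agent. Nek7 was called above the sum, but not in the actin-based fit (adjusted p = 0.0793). Gcnt2 was high with PL2-3 only on 1 of 3 arrays, the one labelled Ambion. Bcat1 read 11090, 10086 and 13391 with PL2-3 and 9286 to 12183 with both agents. Shmt1 read 7724, 8358 and 8109 with PL2-3 and 8296 to 10600 with both agents. Gcnt2 read 384, 275 and, on the Ambion array, 2507 with PL2-3 and 2057 to 3343 with both agents. In media, too, its Ambion array read far above its Enzo arrays. Il6, which lay below CpG with both agents, read 5487, 5946 and 3184 with PL2-3, and this overlapped 4238 to 5863 with both agents.

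Mx2 went another way. It read 60.9, 48.7 and 70.7 with PL2-3, below every array in media (79.3 to 166) and far below both agents (880 to 1912). Its signals with PL2-3 and in media were below the medians of those arrays, 291 to 496 and 412 to 514. The gap between these 2 groups is thus near the floor. Mx1 likewise read 211, 473 and 360 with PL2-3 and 1490 to 3696 with both agents. Xist, by contrast, read 9033, 13098 and 10256 with PL2-3, within the range of the other groups besides both agents.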
